A study of Jatropha curcas with 31 samples.

Results

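The step from stage IV to stage V of seed maturation in Jatropha curcas, an oilseed shrub of the spurge family, was described from 7 one-colour oligonucleotide arrays out of the 31 of the series, of which 21 held seed RNA. Stage V (brown fruit, 4 arrays) was set against stage IV (yellow fruit, 3 arrays), and all 57842 probes, which lie on 19838 contigs, were compared. The methods class the 6 stages by the colour of the outer and inner fruit wall, and the labels name them from green-white (I) over green-half (II), green-black (III), yellow (IV) and brown (V) to dry (VI). By the methods the seeds of all stages came from 1 selected plant and were gathered together, and no treatment is named. Some labels of stage V arrays carry a number that looks like a year, or the word klein. The labels of stage IV arrays carry neither, and the sources used do not explain these marks. The methods call the 3 or 4 arrays of a stage biological replicates, and since all came from 1 plant, p-values measure the spread between these arrays only. RNA was taken from seeds, and fewer cells of a type and less RNA per cell cannot be told apart in them.

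During maturation an oilseed first builds its coat and storage tissue, then fills with oil and protein, and finally loses water and enters a dry, resting state. The phenylpropanoid pathway turns phenylalanine into lignin precursors and, through chalcones, into flavonoids, which harden and colour the seed coat. Cell walls grow by the laying down of cellulose and pectin and are remodelled by enzymes that trim pectin and xyloglucan. Oil is made from fatty acids that acyltransferases join to glycerol, and raffinose-type sugars are known to accumulate before drying.

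On the 6 arrays of slides 1, 2 and 3, which each held 1 array of either stage and were scanned on the same day, 67.0% to 69.4% of the probe spots at stage V and 64.7% to 68.4% at stage IV were well above background. The fourth stage V array (replicate 4) lay on slide 4, scanned on another day, with 55.5% of its spots well above background. It correlated with the other stage V arrays with r = 0.910 to 0.928 and with the stage IV arrays with r = 0.898 to 0.924 across probes, while the other stage V arrays correlated among themselves with r = 0.980 to 0.984. For 57.0% of the probes it lay outside the range of the other 6 arrays. Every comparison was therefore made with it and without it, and "both fits" means an adjusted p under 0.05 with the same sign in both (limma, Benjamini-Hochberg over all probes). Of the seed storage markers, both oleosin contigs, which encode oil body proteins, lay above 99.2% and 99.9% of the probes. Neither was called (limma, adjusted p of 0.37 and 0.76). The 11S globulin contig lay above 79.6% and the vicilin contigs above 87.0% and 99.4%, and vicilin contig00303 was called lower in both fits. Bright signal was not confined to seed markers. The light harvesting contigs lay above 76.3% to 99.1% and the rubisco contigs above 38.8% to 93.7% of the probes.

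With all arrays, 3141 probes were called (5.43% of those tested), 1348 higher (2.33%) and 1793 lower (3.1%) at stage V. Without the slide 4 array 2759 were called (4.77%), 1020 higher and 1739 lower. Both fits called 2362 probes (4.08%), 879 higher (1.52%) and 1483 lower (2.56%) at stage V, which were 75.2% of the calls with the array and 85.6% of those without it. The array added 779 calls and removed 397, and none of these (0) had the opposite sign in the other fit. At the threshold of 1e-08 that the methods state, no probe (0) was called in either fit, and 9514 with the array and 8929 without it had an unadjusted p under 0.05. With the slide as a block, 6753 probes were called with all arrays and 5655 in both fits, of which 2361 were among the 2362.

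The falls were larger than the rises. Among the probes of both fits the median difference was 1.16 (log2, stage V minus stage IV) for those higher and -1.44 for those lower at stage V, against 0.03 for all probes, and of the 480 probes changed by at least 4-fold, 81 were higher and 399 lower. Each of the 2362 probes had the called sign within slides 1, 2 and 3. These slides hold all stage IV and V arrays of the fit without the slide 4 array, so this follows in part from the call and is no independent support. By the brightest probe of each contig, 1421 contigs (7.16%) were called in both fits, 591 higher (2.98%) and 830 lower (4.18%), and for 1415 of them the arrays of the stages did not overlap, as was so for 30.9% of all contigs. The plot of all contigs shows the longer arm on the side of the falls. Of the 3591 contigs with an annotation, 378 (10.53%) were called, 162 higher and 216 lower. An annotation is a text, an enzyme, a protein match or a gene symbol other than a locus number, and gene ontology terms alone do not count. Part of the annotation came from the study's lists of sequences that changed in these arrays, so this share is not independent of them.

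**Figure D1:**
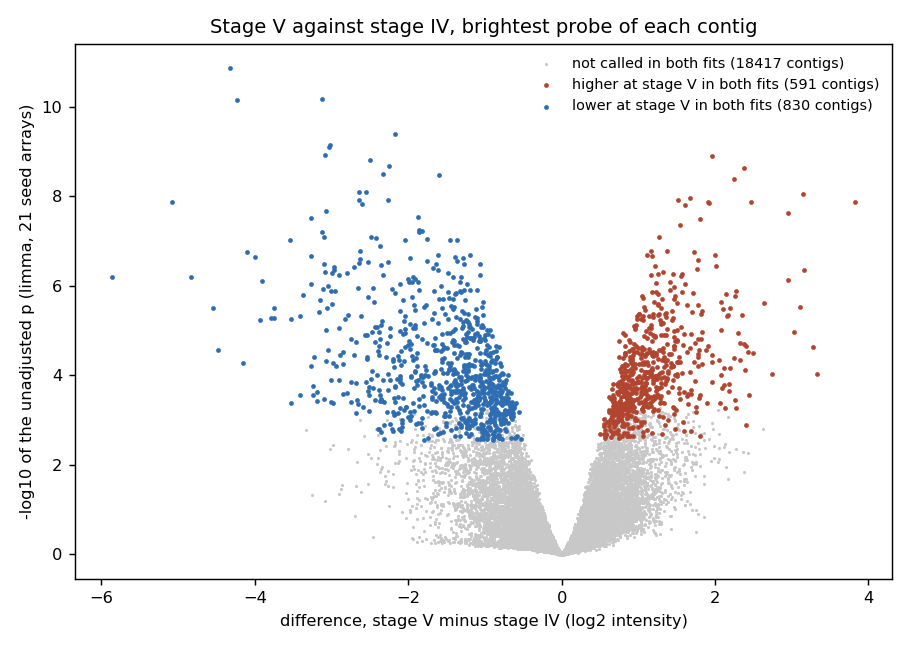
The difference between stage V and stage IV (log2 intensity, horizontal axis) is plotted against -log10 of the unadjusted p of limma over the 21 seed arrays (vertical axis), with a point for the brightest probe of each contig. Red points (591) were higher and blue points (830) lower at stage V in both fits, and the blue points reach farther from 0, to -5.86 against 3.83 for the red.

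The largest rise among annotated contigs was that of contig00044, cinnamate 4-hydroxylase (symbol C4H), which hydroxylates cinnamate early in the phenylpropanoid pathway. Its log2 intensity was 10.20, 10.72, 10.24 and 10.38 at stage V, against 5.95, 6.61 and 7.11 at stage IV (replicates in order, the last of stage V on slide 4). All stage V arrays lay above all stage IV arrays, and the slide 4 array lay among the others. The difference was 3.83 (SE 0.38, limma, adjusted p = 2.8e-05), and 3.79 without the slide 4 array. Of its 7 probes 3 were called in both fits, all in sense direction and all higher. The next largest rises of annotated contigs were those of contig19461 and contig11261, both listed as 6'-deoxychalcone synthase, which builds the chalcone skeleton from which flavonoids derive. Contig19461 had 13.61, 13.28, 13.37 and 13.44 at stage V, against 10.002, 10.27 and 10.55 at stage IV, and a difference of 3.15 (adjusted p = 2.7e-05). Contig11261 had 10.39, 10.06, 10.05 and 10.97 at stage V, against 6.88, 7.69 and 7.47 at stage IV, and a difference of 3.02 (adjusted p = 0.0013). Neither overlapped between the stages. The list of this enzyme holds 5 contigs, and the other 3 were not called (from -0.76 upward, median of the 5 at 0.09).

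Some contigs annotated for other steps of the phenylpropanoid pathway fell. Contig00756, annotated as cytochrome P450 84A1-like and matched to ferulate 5-hydroxylase of Arabidopsis, which leads to syringyl units of lignin, had 7.04, 7.55, 6.67 and 8.32 at stage V, against 11.39, 11.68 and 11.11 at stage IV. All stage V arrays were lower, and the slide 4 array was the nearest to stage IV. The difference was -4.00 (SE 0.49, limma, adjusted p = 0.00015), and all 4 of its probes were lower, 3 of them called in both fits. Contig05064, phenylalanine ammonia-lyase, which opens the pathway by removing ammonia from phenylalanine, had 4.06, 6.20, 6.65 and 4.72 at stage V, against 7.75, 9.15 and 9.92 at stage IV. Its arrays spread widely within both stages without overlapping, and the difference was -3.53 (SE 0.81, limma, adjusted p = 0.014, 0.040 without the slide 4 array). All 3 of its probes were lower, but only the brightest was called in both fits, and the others differed by -1.37 and -0.29. The call was lost without stage V replicate 1 (adjusted p = 0.051), without stage IV replicate 2 (0.064) and without stage IV replicate 3 (0.085).

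Contig00756 was also measured by PCR in the study, and its primer pair is shown because it marks the larger of these 2 falls. The letters are given 5′ to 3′ as the primer table of the study has them.
contig00756 primer 1: agctcactgcttttcattcca
contig00756 primer 2: tctgcaactggggttgtatg

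In the phenylpropanoid list as a whole (89 contigs), 2 contigs were higher and 8 lower in both fits (11.2% called, against 7.16% of all and 10.53% of annotated contigs). The median difference was -0.25, against 0.01 for all contigs. Besides C4H the other riser was contig13491, a caffeoyl-CoA O-methyltransferase, which methylates lignin precursors, with 13.58 ± 0.52 at stage V, against 11.50 ± 0.10 at stage IV (mean ± SD, n = 4 and 3). Contig03134 of the same enzyme list went the other way, with 6.41 ± 0.31 at stage V and 8.30 ± 0.17 at stage IV. Contig09344, a peroxidase, a class of enzyme that couples lignin precursors in the wall, had 6.94 ± 0.43 at stage V and 9.93 ± 0.11 at stage IV.

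Flavonoid biosynthesis had the highest share of called contigs among the pathway lists, 19 of 106 (17.9%, against 7.16% of all and 10.53% of annotated contigs). Of these 7 were higher and 12 lower, and the median difference of the list was -0.19. The falls included 6 of the 25 contigs listed for flavonol synthase, which oxidises dihydroflavonols, and 1 was higher. Some of those that fell carry other annotations. Contig00445 and contig02548 are annotated as probable iron ascorbate oxidoreductases. Contig00476 is also listed as deacetoxyvindoline 4-hydroxylase and matched to a 2-oxoglutarate-dependent dioxygenase of Arabidopsis. The largest fall of a contig listed for flavonol synthase was that of contig16444, with 3.72, 4.55, 3.03 and 3.03 at stage V, against 7.28, 6.64 and 6.13 at stage IV, without overlap and by 3.10 on the log2 scale (limma, adjusted p = 0.00017). Only 2 of its 4 stage V arrays were well above background, and its difference was -1.19 with normexp background correction. Contig00630 and contig00631, both annotated as anthocyanidin reductase-like, an enzyme that makes the flavan-3-ol units of seed coat tannins, had 7.12 ± 0.12 and 6.25 ± 0.79 at stage V, against 9.77 ± 0.11 and 8.64 ± 0.11 at stage IV. Their differences were -2.64 and -2.38 (log2), and their Arabidopsis match is a cinnamoyl-CoA reductase family protein, a different enzyme. Contigs of 1 enzyme family can share sequence, and cross-hybridization between them was not tested.

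**Figure D2:**
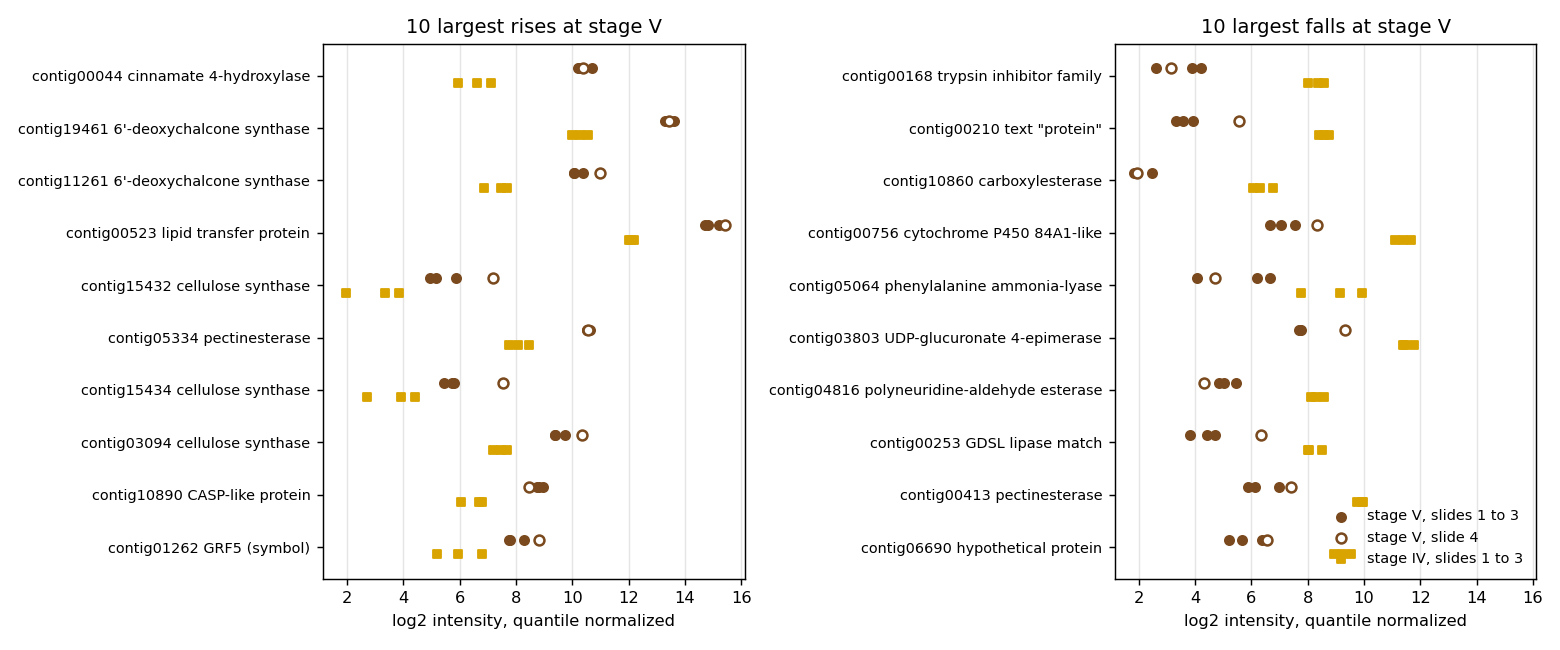
Log2 intensity (quantile normalized, horizontal axis) of the 10 annotated contigs with the largest rise (left) and the 10 with the largest fall (right) at stage V in both fits, with a point for each array. Brown circles are the 4 stage V arrays (open for slide 4) and yellow squares the 3 stage IV arrays, and no contig overlaps between the stages, with the slide 4 array at times apart from the other stage V arrays, as for contig03803 (9.32 against 7.68 to 7.77).

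Cell wall genes changed in both directions. Of the 26 contigs listed for cellulose synthase (and its relatives under the same enzyme number), 3 were higher and 1 lower in both fits. Over all contigs 7.16% and over annotated contigs 10.53% were called. Contig03094 had 9.37, 9.73, 9.40 and 10.35 at stage V, against 7.20, 7.47 and 7.69 at stage IV, a difference of 2.26 (SE 0.32, limma, adjusted p = 0.00044). Contig15432 had 5.89, 5.17, 4.95 and 7.19 at stage V and 1.97, 3.86 and 3.34 at stage IV, a difference of 2.74 (adjusted p = 0.0053). Contig15434 had 5.79, 5.73, 5.43 and 7.54 at stage V and 3.91, 4.41 and 2.70 at stage IV. Both were well above background on only 1 of the 3 stage IV arrays, and in both the slide 4 array was the highest. For contig15432 the difference was 1.46 in the authors' log2 values and 0.73 with normexp background correction, and the call was lost with only the arrays of stages IV and V (adjusted p = 0.085). For contig15434 the difference of 2.45 (adjusted p = 0.011) was no longer called with normexp (0.80, adjusted p = 0.12), in the log2 table of the authors (1.45, adjusted p = 0.062) or without stage IV replicate 3 (1.96, adjusted p = 0.077).

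Pectinesterases, which remove methyl groups from pectin, rose and fell. Of 23 contigs listed, 2 were higher and 2 lower in both fits, where 7.16% of all and 10.53% of annotated contigs were called. Contig05334 had 10.64, 10.53, 10.52 and 10.55 at stage V, against 7.74, 8.08 and 8.47 at stage IV, the tightest stage V group of the 20 largest changes (SD 0.05), and rose by 2.46 (SE 0.25, limma, adjusted p = 2.8e-05). Contig00413 had 6.11, 6.98, 5.89 and 7.40 at stage V, against 9.91, 9.73 and 9.96 at stage IV, and fell by 3.27 (SE 0.62, adjusted p = 0.0040). Its 4 antisense probes were all lower, between -2.69 and -3.27, while its 5 sense probes lay between -0.51 and 0.13 and were not called. For contig00413 too the study designed primers, shown here for the fall that opposes contig05334.
contig00413 primer 1: catgaaatccaggccaattt
contig00413 primer 2: ggagcagcatcgtatggtaa

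Other genes of pectin and the wall fell. Contig03803, UDP-glucuronate 4-epimerase, which makes the sugar nucleotide used for pectin, had 7.68, 7.77, 7.72 and 9.32 at stage V, against 11.37, 11.78 and 11.46 at stage IV, a difference of -3.41 (limma, adjusted p = 0.00081) that all 5 of its probes shared in sign. Contig10525, of the same enzyme list of 3 contigs, fell by 1.57 on the log2 scale. Both called contigs among 20 listed for polygalacturonase, which cuts pectin chains, were lower, contig20094 by 1.67 and contig01531 by 3.04 (log2). Of all annotated contigs 10.53% were called in both fits. Contig01531 was not well above background on any stage V array. Its fall of 8.24-fold (the stage IV mean over the stage V signals) is a bound in this processing only. The largest fall of all contigs, at contig11563, belonged here by its gene ontology (GO) terms, which place it in the apoplast with xyloglucan:xyloglucosyl transferase activity, the cutting and rejoining of xyloglucan chains. It had 5.17, 5.95, 4.47 and 6.97 at stage V, against 11.34, 11.31 and 11.83 at stage IV, with no overlap, and was 58.02-fold lower (log2 difference -5.86, SE 0.77, limma, adjusted p = 0.00025), with all 4 probes lower. Contig10890, which resembles CASP membrane proteins (known in Arabidopsis for the Casparian strip of the root wall), rose, with 8.80, 8.97, 8.75 and 8.46 at stage V, against 6.03, 6.69 and 6.78 at stage IV, and a difference of 2.25 (adjusted p = 1.6e-05).

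**Figure D3:**
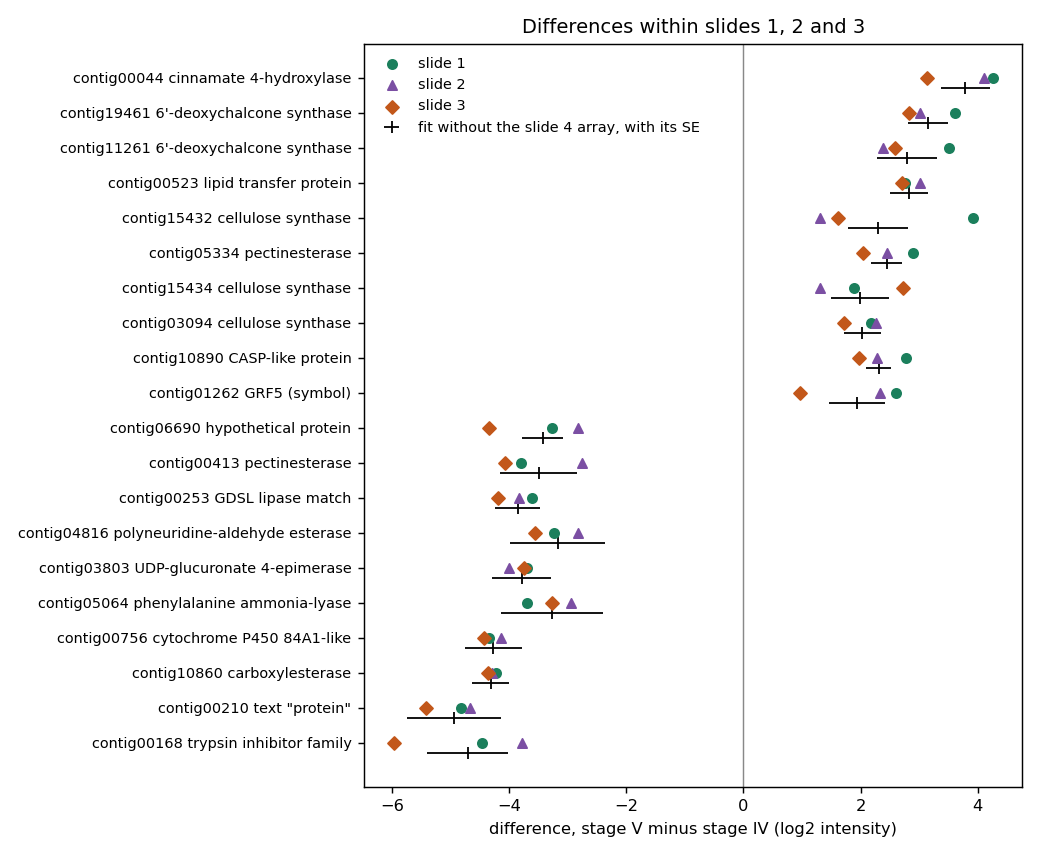
Stage V minus stage IV (log2 intensity, horizontal axis) within slide 1 (circles), slide 2 (triangles) and slide 3 (diamonds) for the 20 annotated contigs of the largest changes, with the difference fitted without the slide 4 array and its SE (vertical tick and black bar). Every one of these within-slide differences lies on the side of the call, with the widest gap between slides at contig15432 (3.91 on slide 1, 1.31 on slide 2 and 1.61 on slide 3).

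Carbohydrate metabolism as listed changed in both directions. Starch and sucrose metabolism (218 contigs, the wall enzymes included) had 12 higher and 15 lower in both fits (12.4%, against 7.16% of all and 10.53% of annotated contigs), with a median of 0.01. Among those higher were contig06933, starch synthase, which extends starch chains (9.16 ± 0.03 at stage V, 8.17 ± 0.0013 at stage IV), contig05026, glucose-1-phosphate adenylyltransferase, which makes the sugar donor of starch (10.37 ± 0.12 and 9.55 ± 0.13), and both called contigs of 4-alpha-glucanotransferase. Among those lower was contig02998, alpha-amylase, which breaks starch down, with 8.34 ± 0.54 at stage V, against 10.998 ± 0.05 at stage IV. All 7 of its probes were lower. Contig01695, beta-amylase (symbol BMY3), fell by 0.77. Both called contigs of beta-fructofuranosidase (5 listed), which splits sucrose, were lower.

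Galactose metabolism (91 contigs) had 5 higher and 9 lower (15.4%, against 7.16% of all and 10.53% of annotated contigs). Contig00738 is annotated as a probable galactinol-sucrose galactosyltransferase, a type of enzyme that makes raffinose, and listed as galactinol-raffinose galactosyltransferase. Its Arabidopsis match is the seed imbibition protein SIP1, labelled as a hydrolase of glycosyl compounds, so its annotations disagree on making or cleaving such sugars. Contig00738 had 13.08, 13.21, 13.13 and 12.61 at stage V, against 11.19, 11.06 and 11.48 at stage IV. No arrays overlapped, and it rose by 1.76 (SE 0.22, limma, adjusted p = 0.00020). All 5 of its probes were higher, 3 of them called in both fits. The called contigs listed as beta- or alpha-galactosidase, which cleave galactosides, were lower. Contig05542, 1 of 17 for beta-galactosidase, was lower by 3.65-fold (limma, adjusted p = 0.00029). Of the 8 alpha-galactosidase contigs 2, contig06441 and contig12983, were lower by 1.41 and 1.07 on the log2 scale.

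Glycolysis had 10 higher and 2 lower of 127 (9.45% called, against 7.16% of all and 10.53% of annotated contigs), with a median of 0.24 and 88 above 0. Among the higher contigs, contig10779 and contig00477, listed as alcohol dehydrogenase, are also listed as dihydrokaempferol 4-reductase, of the flavonoid list. Contig00477 is annotated as a cinnamoyl reductase-like protein. Contig18221, enolase, which makes phosphoenolpyruvate, had 12.31, 12.20, 11.99 and 12.51 at stage V, against 10.92, 10.99 and 11.03 at stage IV, a rise of 1.27 (limma, adjusted p = 0.00076). All 6 of its probes were higher, 2 of them called in both fits. Contig18709 of the same enzyme rose by 0.76, and contig19294 and contig10396, phosphoglucomutases, by 1.05 and 0.75. Contig20120 and contig18901, both listed as fructose-bisphosphatase, an enzyme of glucose synthesis and of the Calvin cycle, went opposite ways (0.81 and -1.38), and the fall of contig18901 ended as a call without any of the arrays on slides 1 to 3 (adjusted p of 0.069 to 0.15). The tricarboxylic acid cycle had 2 higher and 0 lower of 53, and oxidative phosphorylation 2 higher and 1 lower of 88, shares of 3.77% and 3.41% that lie under that of all contigs.

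**Figure D4:**
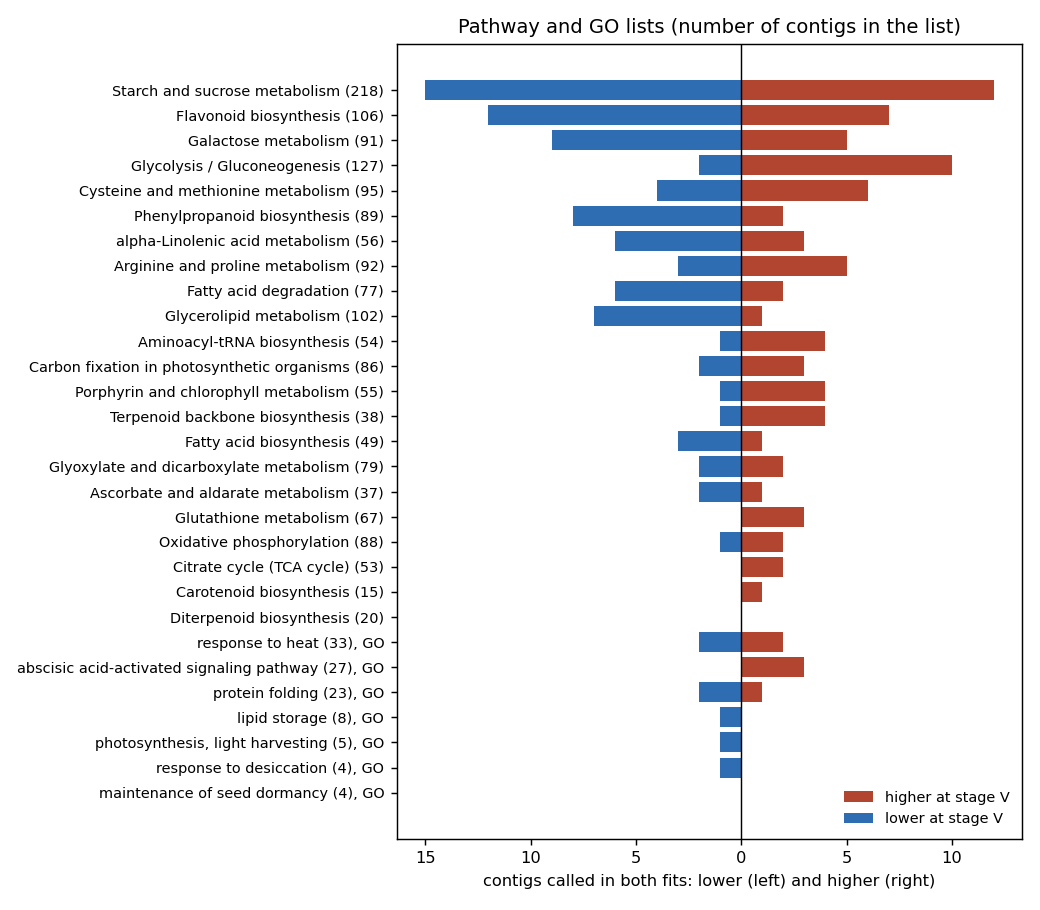
Number of contigs called in both fits in each pathway list and each GO list (the number of contigs in the list stands in brackets), with those lower at stage V to the left in blue and those higher to the right in red. Starch and sucrose metabolism holds the most (12 higher and 15 lower), and glycolysis has a long bar to the right and a short one to the left (10 higher and 2 lower).

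In the lists of lipid metabolism more contigs were lower than higher, as was so over all contigs (830 against 591). Glycerolipid metabolism (102 contigs) had 1 higher and 7 lower, fatty acid degradation (77) 2 and 6, fatty acid biosynthesis (49) 1 and 3, and alpha-linolenic acid metabolism (56) 3 and 6, with called shares of 7.84%, 10.4%, 8.16% and 16.1%, against 7.16% of all and 10.53% of annotated contigs. Contig00653, listed as diacylglycerol O-acyltransferase and annotated as WSD1-like, a kind of acyltransferase known in Arabidopsis for wax esters, had 7.06, 7.37, 6.78 and 8.003 at stage V, against 10.38, 10.35 and 10.40 at stage IV. The stages lay far apart, and it fell by 3.07 (SE 0.32, limma, adjusted p = 3.7e-05). Contig02910, beta-ketoacyl-ACP synthase I, which lengthens fatty acids, had 4.87, 5.30, 4.37 and 6.86 at stage V, against 8.13, 8.22 and 8.41 at stage IV, a difference of -2.90 (adjusted p = 0.0063), with the slide 4 array the nearest to stage IV. Contig09760 and contig05237, triacylglycerol lipases, which release fatty acids from oil, fell by 1.09 and 1.54. The 1 riser among glycerolipid contigs was contig10882, glycerol-3-phosphate acyltransferase, which attaches the first fatty acid, with 8.11 ± 0.08 at stage V and 7.37 ± 0.08 at stage IV, a call that was lost without each of the stage IV replicates (adjusted p of 0.053 to 0.076) and with leaf arrays added (0.069).

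Of the alpha-linolenic acid list, contig00093, allene oxide synthase (symbol AOS), the enzyme that commits fatty acid hydroperoxides to jasmonate, had 10.73, 10.93, 10.53 and 10.999 at stage V, against 8.87, 8.94 and 8.86 at stage IV. It rose by 1.91 (SE 0.19, limma, adjusted p = 2.8e-05), and all 5 of its probes were higher, 2 of them called in both fits. Both called contigs of jasmonate O-methyltransferase, which makes methyl jasmonate, were lower, contig18454 with 5.20 ± 0.48 at stage V and 7.10 ± 0.40 at stage IV, and contig09341 with 2.74 ± 0.57 and 4.77 ± 0.27. Contig09341 was not well above background on any stage V array. Its fall of 4.09-fold (the stage IV mean over, per stage V array, the higher of its own signal and the lowest signal well above background) is a bound in this processing only. Its difference was smaller and not called with normexp (-0.34, adjusted p = 0.066) or in the log2 table of the authors (-1.09, adjusted p = 0.21). Contig00523, a lipid transfer protein precursor, of a family of small secreted proteins that bind lipids, was the brightest of the large rises, with 14.83, 15.20, 14.72 and 15.44 at stage V, against 12.08, 12.18 and 12.01 at stage IV, and a difference of 2.96 (adjusted p = 3.9e-05), on its antisense probe only, since its dim sense probe had a difference of -0.03 (not called).

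Hormone genes were called singly. Contig00318, aminocyclopropanecarboxylate oxidase, the last enzyme of ethylene synthesis, had 9.69, 10.52, 9.84 and 9.83 at stage V, against 12.09, 12.31 and 13.11 at stage IV. It fell by 2.53 (SE 0.46, limma, adjusted p = 0.0029) by its brightest probe. All 5 of its probes were lower, but only the 2 antisense probes were called in both fits. Contig01005, annotated as xanthoxin dehydrogenase-like and matched to ABA2 of Arabidopsis, an enzyme of abscisic acid synthesis, had 13.54, 13.54, 13.51 and 13.57 at stage V, against 12.47, 12.67 and 12.52 at stage IV, a rise of 0.98 (adjusted p = 0.00081). Of the 27 contigs given for the abscisic acid signalling pathway, 3 were higher and 0 lower (11.1%, against 7.16% of all and 10.53% of annotated contigs). Of these 3, contig11873 and contig02003 are annotated as protein phosphatase 2C 25, of a family that dampens abscisic acid signalling (0.97 and 0.89, log2). The GO lists were drawn by the study from these arrays and are not independent of them.

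Amino acid and sulfur metabolism changed in parts. Cysteine and methionine metabolism (95 contigs) had 6 higher and 4 lower (10.53%, the same share as over annotated contigs). Contig00697, beta-cyanoalanine synthase, which detoxifies the cyanide released in ethylene synthesis, had 12.29, 12.31, 12.43 and 13.41 at stage V, against 10.27, 10.58 and 10.52 at stage IV, with the slide 4 array the highest, and rose by 2.15 (adjusted p = 0.00081), or by 1.88 without that array. Contig02558, adenosylhomocysteinase, and contig02902, S-adenosylmethionine decarboxylase, which feeds polyamine synthesis, rose by 1.19 and 1.05, with all 8 probes of each higher. Contig06556, listed as cystathionine gamma-synthase, an enzyme of methionine synthesis, and contig00520, serine acetyltransferase, of cysteine synthesis, were lower, with differences of -2.28 and -1.60. Of the 54 aminoacyl-tRNA contigs, 46 had a difference above 0 (median 0.30, or 0.24 without the slide 4 array, against 0.01 for all contigs). In both fits 4 were higher and 1 lower (9.26%, against 7.16% of all and 10.53% of annotated contigs).

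Porphyrin and chlorophyll metabolism (55 contigs) had 4 higher and 1 lower (9.09%, against 7.16% of all and 10.53% of annotated contigs). Contig13152, listed as chlorophyll b reductase, which starts the breakdown of chlorophyll b, had 10.37, 10.40, 10.19 and 11.29 at stage V, against 9.39, 9.23 and 9.28 at stage IV, a rise of 1.26 (limma, adjusted p = 0.0083). The call was lost with 75th percentile scaling and with only the arrays of stages IV and V (adjusted p = 0.056 in both) and with leaf arrays added (0.18). Contig03038 and contig03279, protochlorophyllide reductases of chlorophyll synthesis, rose by 1.22 and 0.86. Contig07297, magnesium chelatase, which inserts magnesium on the way to chlorophyll, fell by 1.05 (adjusted p = 0.0044). Contig04977, phosphoribulokinase of the Calvin cycle, was 3.75-fold lower (adjusted p = 0.00027), with all 7 probes lower, 5 of them called. Of the 5 contigs given for light harvesting, all had a difference under 0, and contig01877 (1 of 5, 20%) was called in both fits (12.84 ± 0.16 at stage V, 14.25 ± 0.20 at stage IV). Contig01396 of this list was called with all arrays (limma, adjusted p = 0.029) but not without the slide 4 array (0.056). None of the 4 rubisco contigs was called with all arrays, while contig19317 was called without the slide 4 array (adjusted p = 0.046).

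Terpenoid backbone biosynthesis had 4 higher and 1 lower of 38 contigs (13.2%, against 7.16% of all and 10.53% of annotated contigs). Contig12738, of the plastid route to isoprenoids (the methylerythritol phosphate pathway), had 10.57, 10.55, 10.44 and 11.15 at stage V, against 8.76, 8.98 and 8.97 at stage IV, a rise of 1.77 (limma, adjusted p = 0.0017), and contig01773, farnesyl diphosphate synthase, which makes the precursor of sterols, and contig03386, isopentenyl-diphosphate isomerase, rose by 1.26 and 0.94. Contig00205, annotated as isoprene synthase and matched to a myrcene/ocimene synthase of Arabidopsis, had 9.31, 8.90, 9.48 and 9.44 at stage V, against 11.99, 12.01 and 11.92 at stage IV, and fell by 2.69 (adjusted p = 0.020). The call was lost without stage V replicate 2 and without each stage IV replicate (adjusted p of 0.056 to 0.076). No diterpenoid contig (0 of 20) was called in both fits, and 2 were called higher with all arrays.

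The lists of drying and storage are short, so that 1 call moves their share widely. Of the 8 contigs given for lipid storage 1 was called (12.5%, against 7.16% of all and 10.53% of annotated contigs). It was contig17418, lower by 0.84 on the log2 scale (limma, adjusted p = 0.021, and not called in 7 of the alternative fits). Of the 4 for the maintenance of dormancy none (0) was called in either fit. Contig00303, annotated as a vicilin seed storage protein, fell by 2.03 (SE 0.48, limma, adjusted p = 0.016), to 9.01 ± 0.81 at stage V, against 11.04 ± 0.23 at stage IV, while the other vicilin contig and the 11S globulin contig were not called. None of the 3 late embryogenesis abundant contigs was called (adjusted p of 0.071, 0.83 and 0.99). Contig01867, aquaporin PIP2;4, a water channel of the plasma membrane and the 1 of 4 desiccation contigs (25%) that was called, had 8.28, 9.22, 8.52 and 9.14 at stage V, against 10.52, 10.76 and 11.005 at stage IV, and fell by 1.97 (SE 0.31, adjusted p = 0.0010) by its brightest probe. Of its 6 probes 3 had this sign, and the mean of its antisense probes was not called (-0.83, adjusted p = 0.27), so its primers are given to mark the transcript.
contig01867 primer 1: gcattgctcctgaaagatcc
contig01867 primer 2: ctgggttggaccttttgttg

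Redox genes were called in both directions. Contig01308, GDP-L-galactose phosphorylase (VTC2 of Arabidopsis), a controlling step of vitamin C synthesis, had 13.54, 13.67, 13.60 and 13.47 at stage V, against 12.58, 12.35 and 12.44 at stage IV, a rise of 1.11 (limma, adjusted p = 0.0026). All 6 of its probes were higher, 1 of them called in both fits. Contig15719, monodehydroascorbate reductase, which recycles ascorbate, rose by 0.92. Contig05247, glutathione peroxidase, rose by 1.54, and no glutathione contig (0 of 67) fell in both fits. The glutathione list had 4.48% called, against 7.16% of all and 10.53% of annotated contigs. Contig00439, annotated as a multicopper oxidase, with a laccase as its Arabidopsis match and ascorbate oxidase as its enzyme, fell to 4.35 ± 0.65 at stage V, where 2 of its 4 arrays were well above background, against 7.04 ± 0.25 at stage IV, and contig19819, catalase, which splits hydrogen peroxide, fell by 1.07.

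Other large falls were of contigs with varied annotation. Contig00168, matched to a trypsin and protease inhibitor protein of Arabidopsis, had 3.89, 4.22, 2.61 and 3.16 at stage V, against 8.36, 7.997 and 8.57 at stage IV. It had the largest fall of a contig counted as annotated (difference -4.84, log2, SE 0.64, limma, adjusted p = 0.00025). Contig11563 and contig11191, which have GO terms but no such annotation, fell further. Only 2 of the 4 stage V arrays of contig00168 were well above background, and its difference was -2.26 with normexp, against -3.72 in the authors' log2 values. Contig10860, a carboxylesterase, an enzyme class that splits esters, had 1.83, 2.46, 1.94 and 1.95 at stage V, where no array was well above background, against 6.05, 6.76 and 6.31 at stage IV. The fall was thus at least 19.5-fold in this processing (limma, adjusted p = 8.0e-07, the smallest over all probes), and its difference was -1.17 with normexp and -3.32 in the log2 table. This was its brightest probe and the 1 of its 5 probes called in both fits. Its other sense probes differed by -0.70 and -0.67 and were not called. Contig04816, listed as polyneuridine-aldehyde esterase (named from alkaloid synthesis in Rauvolfia), had 4.86, 5.45, 5.03 and 4.32 at stage V, against 8.10, 8.28 and 8.59 at stage IV, and contig00253, with a GDSL lipase as its Arabidopsis match but the text zinc finger, had 4.41, 4.69, 3.82 and 6.33 at stage V, against 8.03, 8.52 and 8.02 at stage IV. Contig00482, listed as isocitrate lyase but annotated as a carboxyvinyl-carboxyphosphonate phosphorylmutase, fell by 3.05 (adjusted p = 0.0024). Contig00210 (-4.48) and contig06690 (-3.27) fell with no function in their annotation.

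Some contigs not counted as annotated, contig11191 with GO terms among them, changed as much. Contig06760 had 5.12, 5.82, 5.17 and 6.92 at stage V, against 2.24, 2.61 and 2.44 at stage IV, where it was not well above background, so the rise was at least 10.04-fold in this processing (limma, adjusted p = 0.0052), with a difference of 1.93 in the log2 table of the authors and 0.87 with normexp. Contig09966 had 5.82, 5.99, 5.89 and 7.16 at stage V, against 2.08, 3.75 and 2.96 at stage IV, a rise of at least 9.73-fold by the same bound (adjusted p = 0.0022), with a difference of 1.89 in the log2 table and 0.88 with normexp. Contig11191, with GO terms of dicarboxylic acid transport, had 6.31, 8.14, 6.44 and 8.01 at stage V, against 12.14, 12.43 and 12.36 at stage IV, with no overlap, and was 33.9-fold lower (adjusted p = 2.8e-05) with all 4 probes lower.

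Of 68 transcription factor contigs 4 rose and 3 fell in both fits (10.3%), and of 102 transporter contigs 6 rose and 7 fell (12.7%), shares near the 10.53% of all annotated contigs. These are only the contigs whose annotation could be read here, partly from the study's lists of sequences that changed in these arrays. The study reports many more contigs of both kinds, which were not counted. The largest rise of a transcription factor was that of contig08704, annotated as BEL1-like homeodomain protein 9 and matched to REPLUMLESS, known in Arabidopsis for fruit patterning (8.97 ± 0.40 at stage V, 7.33 ± 0.29 at stage IV). Contig01164, matched to the G-box binding factor GBF3, rose by 1.07, with all 5 probes higher, and contig06893, an R2R3-MYB protein, fell by 1.31. Among transporters, contig09789, an ABC transporter, rose by 1.80 (limma, adjusted p = 4.8e-05), and contig02363, an AKT1-like potassium channel, fell to 8.51 ± 0.26 at stage V, against 10.83 ± 0.15 at stage IV (adjusted p = 1.4e-05). Contig00327, a hexose transporter, fell by 1.96. Contig01262 is not among these transcription factor contigs, and its only name is the symbol GRF5 of the reference gene table, which is ambiguous. It rose, with 7.80, 8.28, 7.77 and 8.80 at stage V, against 5.20, 5.95 and 6.80 at stage IV, and was not called without stage IV replicate 1 (adjusted p = 0.062).

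Over the 6 stages the contigs called in this step followed different courses. Of the 591 that rose, 279 had their highest mean at stage V, 179 at stage I and 84 at stage VI. Of the 830 that fell, 259 had their highest mean at stage IV, 190 at stage III, 177 at stage I and 123 at stage VI, and 317 had their lowest at stage V. By the way they were chosen, no riser (0) can be highest at stage IV and no contig that fell (0) at stage V, so these counts are a description. Contig00044 (C4H) had 13.60 ± 0.08 at stage I, 6.56 ± 0.58 at stage IV, 10.38 ± 0.23 at stage V and 6.75 ± 0.78 at stage VI (mean ± SD, n = 3, 3, 4 and 4), so that the level at stage V lay between those of stages I and IV. Contig10860 had 2.08 ± 0.17 at stage I, 6.37 ± 0.36 at stage IV, 2.04 ± 0.28 at stage V and 2.09 ± 0.30 at stage VI, and was highest at stage IV.

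**Figure D5:**
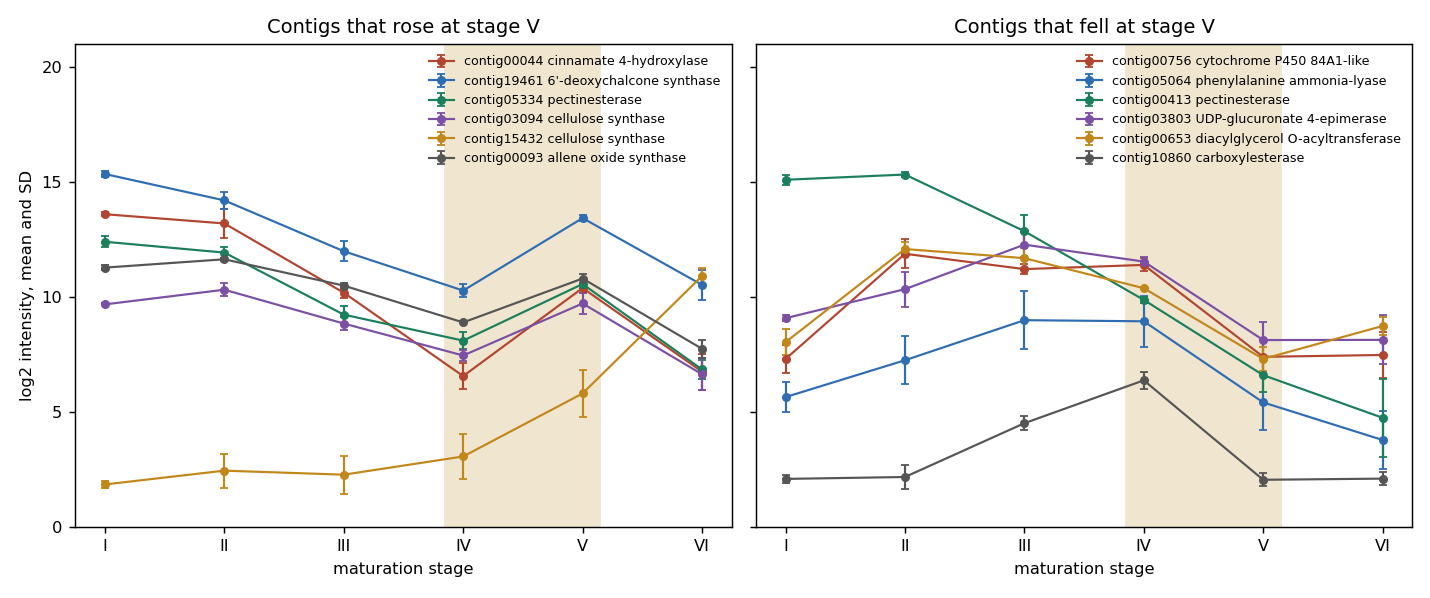
Mean log2 intensity (vertical axis, bars are the SD over the 3 or 4 arrays of a stage) over the 6 maturation stages for 6 contigs that rose (left) and 6 that fell (right) between stage IV and stage V, the step shaded. All those on the left except contig15432 have their highest mean at stage I or II, and contig00044 is at 10.38 at stage V, against 6.56 at stage IV.

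Where a contig had several called probes, they nearly always had the same sign. The 2362 probes lay on 1834 contigs, and of the 422 contigs with 2 or more of them 419 had all of 1 sign and 3 had both signs. Of the antisense probes 1111 of 23363 (4.76%) and of the sense probes 1251 of 34479 (3.63%) were called in both fits, where the direction is that of the probe relative to its contig, whose own strand the files do not give. Among the 64 contigs that the rule named, 36 were called under every alternative fit and 28 lost 1 or more calls, and none (0) changed sign.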

How the data were processed

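Total RNA of seeds was labelled with Cy3 and hybridised to one-colour Agilent 8x60K arrays, whose probes were designed every 250 bases in sense and antisense direction along contigs of a seed transcriptome. The scanner files deposited by the authors hold the intensity of each spot from Agilent Feature Extraction 10.5.1.1, with background subtracted by spatial detrending. The authors also deposited a log2 table of the normalized values, whose further adjustment is not given in the sources used here: for the slide 4 array of stage V it correlated with the scanner values with r = 0.945, against 0.985 to 0.989 for the other arrays of both stages. Depth does not apply to arrays, and their number limits the precision.

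Following the methods, replicate spots were averaged, values put on the log2 scale, missing values imputed from nearest neighbours and arrays quantile normalized. Leaving out control spots and non-uniform outliers, the number of 10 neighbours and the normalization of the 21 seed arrays alone were choices made here. A mean for each stage was fitted with limma 3.58.1 in R 4.3.3, and probes with an adjusted p under 0.05 were called (Benjamini-Hochberg, 57842 p-values). The fit was repeated without the slide 4 array of stage V, after renewed normalization. The slide 4 arrays of stages II and VI stayed in this fit, in its normalization and in its shared spread. A contig is represented by its brightest probe over the seed arrays, and fold changes of probes not well above background are bounds that hold in this processing only. Named are the 10 largest rises and 10 largest falls of annotated contigs called in both fits and well above background on every array of the higher stage, 2 of each without annotation, and the largest rise and fall in each list. Other contigs of the lists were named after their values were seen. The lists come from the supplementary tables of the study, in which long cells are shortened, and members and lists were chosen with earlier results of these data known.

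Slides 1, 2 and 3 hold 1 array of each stage, and deviations from the stage means of arrays on the same slide correlated with r = 0.173, 0.229 and 0.291, so the slide pairs the arrays. Alternatives were another scaling, normexp background correction with an offset of 50, a filter on dim probes, the slide as a block, other sets of arrays, the log2 table, the mean of probes of 1 direction, and each array left out. On simulated data of 57842 probes with 50 changed for each size, 16%, 46%, 74% and 90% of changes of 1, 2, 3 and 4 (log2) were recovered, and 6 unchanged probes were called. The simulation changed far fewer probes than the 3141 called in the data, and its noise was independent between arrays with no slide effect. These shares are therefore not the recovery or the false calls of the comparison itself. No genome was used, so positions are not given.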

Additional observations from a re-analysis of the deposited data

Results flagged for a closer look

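Among 82 groups of 4 stage V values, 10 had an array that stood apart from the other 3 by Dixon's test at the 95% level, and chance alone would flag about 1 in 20 groups. In 8 of the 10 it was replicate 4, the array on slide 4 that was scanned on another day. That array had 55.5% of its spots well above background, against 67.0% to 69.4% on the other stage V arrays, and a median signal over background of 3.72, against 2.36 to 2.50. Its log2 intensity was 7.54 for contig15434, a cellulose synthase, against 5.43 to 5.79 on the others. It was 9.32 for contig03803, UDP-glucuronate 4-epimerase, against 7.68 to 7.77, and 7.16 for contig09966, which has no annotation, against 5.82 to 5.99. It was 13.4 for contig00697, beta-cyanoalanine synthase, against 12.3 to 12.4, and 11.6 for contig19236, against 11.03 to 11.10. The widest gap was at contig00783, a late embryogenesis abundant protein, with 11.8 against 18.1 to 18.7, in a contig that was not called. The other 2 arrays were replicate 1 for contig01830, with 7.86 against 8.22 to 8.27, and replicate 3 for contig04888, with 11.6 against 11.8 to 11.9.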

How the results depend on the processing

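The count of called probes depended strongly on the processing, while none (0) of the 64 named contigs changed sign. With all stage IV and V arrays, the 3141 calls became 0 at 1e-08, 2032 with the leaf arrays added, 8241 in the log2 table of the authors and 6139 with only the 18 seed arrays of slides 1 to 3. Without the slide 4 array, the 2759 calls became 0 at 1e-08, 6612 with only the arrays of stages IV and V, 1655 with leaf arrays, 4362 with normexp and 6899 in the log2 table. The 2362 calls of both fits became 6765 in the log2 table (2253 shared), 3719 with normexp (2112 shared) and 1448 with leaf arrays (1347 shared). The 165 called contigs of the lists with all arrays became 416 in the log2 table, 250 with normexp and 327 with the 18 arrays of slides 1 to 3. With slide as a block, which pairs the arrays, the counts were 6753 with all arrays, 5935 without the slide 4 array, 5655 in both fits (2361 shared) and 350 in the lists.

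Leaving out 1 array at a time gave 1698 to 2759 calls with all arrays, 1369 to 1816 without the slide 4 array, 1249 to 1550 in both fits and 99 to 151 in the lists. With all arrays the stage IV replicates moved the count most, to 1718 without replicate 1, 1698 without replicate 2 and 1956 without replicate 3. In both fits each left-out array moved it by over 1.5 times, to 1262, 1498 and 1249 without stage V replicates 1, 2 and 3 and to 1324, 1252 and 1550 without stage IV replicates 1, 2 and 3. Across all alternatives of the named contigs 882 values kept their call and 78 lost it, at 28 contigs. Under normexp 26 of the named contigs differed in fold by over 1.5 times, and 9 in the log2 table. The cause of these differences was not tested. Signals near background limit the size of a change for contigs not well above it in 1 stage.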

Other observations

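Carotenoid biosynthesis, the pathway of yellow and orange plastid pigments, had 11 of 15 contigs with a difference above 0. The median was 0.69 (log2, stage V minus stage IV), or 0.57 without the slide 4 array, while 1 contig was called in both fits (6.67%, against 7.16% of all contigs). Of 33 contigs given for the response to heat 2 were higher and 2 lower in both fits (12.1%), and of 23 for protein folding 1 was higher and 2 lower (13.04%). Over all contigs 7.16% and over annotated contigs 10.53% were called, and the study drew these GO lists from these arrays. Some calls were made only with the slide 4 array, at times with the same size of difference. Contig10508, a further cellulose synthase contig, had 5.40, 6.03, 4.98 and 5.55 at stage V, against 3.47, 4.09 and 3.33 at stage IV (log2), and its difference of 1.86 (limma, adjusted p = 0.041) was not called without that array (1.85, adjusted p = 0.076). The slide 4 array deviated from the other stage V arrays by a median of 0.66 (absolute, log2), and this deviation correlated across probes with those of the slide 4 arrays of stage II (r = 0.748) and stage VI (r = 0.785), which share its slide.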
